A study of Mus musculus with 7 samples.

Results

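The genes described here are the axon guidance ligands and receptors of mutant mouse oligodendrocyte progenitor cells (OPCs), namely the semaphorins, plexins, neuropilins, ephrins, Eph receptors, Slits, Robos, netrins, netrin-G proteins, *Dcc* and the UNC5 receptors. They were chosen by gene symbol, and 74 of the 33696 genes in the count matrix matched. Of these 74, *Unc50* shares only its first letters with the UNC5 receptors, *Unc5cl* is an UNC5-like gene that is not a receptor of that family, and *Plxna4os1*, *Plxna4os2* and *Plxna4os3* are transcripts on the opposite strand within *Plxna4*, so that 69 guidance genes remained. The 5 genes set apart had 5879, 8, 1, 3 and 13 unique molecular identifiers (UMIs, tags that each mark 1 captured transcript), and whether the counting separated the strands is not given in the sources used here. The cells, called BB-p53n OPCs, came from the brains of Trp53 fl/fl C57BL/6 mouse pups of either sex in the first postnatal week, were captured with an antibody against CD140a, which is PDGFRα, and were transduced in culture with a retrovirus that carries PDGFB and Cre, so that they lack *Trp53* and overexpress PDGFB. Their nuclei were sequenced as 1 library, and the 6 libraries of tumor-bearing brains in the study were not analysed here. Of 10047 deposited barcodes, the 8917 nuclei with 2000 to 8000 detected genes were kept, and they held 141138093 UMIs with a median of 13771 per nucleus. OPCs without the deletion and the retrovirus were not analysed here, and because there is 1 library, no difference was tested, and all intervals are 95% intervals that cover counting error only.

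Axon guidance molecules steer growing axons and migrating cells by attraction or repulsion at the cell surface. Secreted netrins act through DCC and the UNC5 receptors, Slits act through Robos, secreted class 3 semaphorins act through neuropilins paired with plexins while most other semaphorins bind plexins directly, and membrane-bound ephrins act through Eph receptor tyrosine kinases on neighboring cells. In the oligodendrocyte lineage, netrin-1 and class 3 semaphorins are known for directing the migration of OPCs in the developing brain.

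Nuclei were divided by their UMIs of *Pdgfra*, the OPC receptor for PDGF that also served to capture the cells, so that the split acts on the gene of the capture. No *Pdgfra* UMI was counted in 2341 nuclei (26.3%), 1 UMI in 1000 nuclei and 2 or more in 5576 nuclei (62.5%). These groups differed in more than *Pdgfra*. The nuclei with 0 had a median of 10621 UMIs and those with 2 or more 16258, at mitochondrial shares of 6.33% and 6.35%. *Xist*, transcribed from the inactive X chromosome, was counted without any of 4 Y-linked genes in 62.0% of the nuclei with 0 and in 6.21% of those with 2 or more. *Egfr*, a growth factor receptor, was at 200.5 CPM (the UMIs of a gene per 1000000 UMIs of the group) with 0 and 21.6 CPM with 2 or more. The proliferation gene *Mki67* was at 375 and 456 CPM. Of 5 OPC markers, *Pdgfra* itself is set by the split, and the other 4 were at 530.4 CPM with 0 and 641 CPM with 2 or more for *Olig1*, 231 and 310.2 CPM for *Olig2*, 20.1 and 107 CPM for *Sox10* and 25.3 and 74.9 CPM for *Cspg4*. A list of 5 markers of committed oligodendrocyte precursors summed to 273 and 519 CPM, of which *Bcas1* had 102 and 405, while *Itpr2* went the other way at 168 and 103 and *Enpp6* was at 0.599 and 0.0972. Of the markers of other cell types given here, 5 pericyte and fibroblast genes summed to 0.390 CPM, 5 microglia genes to 7.30 CPM with *C1qa* at 0, and 5 endothelial genes to 11.0 CPM with *Cldn5* at 0. The 5 neuron genes summed to 124 CPM, of which *Syt1* had 109, and the 5 astrocyte genes to 207 CPM, of which *Aldoc* had 192 while *Aqp4* had 0.0283. Between the groups with 0 and with 2 or more *Pdgfra* UMIs, the neuron list was at 85.6 and 129.7 CPM (*Syt1* at 59.7 and 118, but *Rbfox3* at 13.8 and 1.41 and *Gad1* at 3.63 and 1.95), the astrocyte list at 226 and 198 (*Aldoc* at 217 and 182, but *Slc1a2* at 7.41 and 15.4 and *Gfap* at 0.749 and 1.17), the microglia list at 7.79 and 7.04, the endothelial list at 15.7 and 9.36 and the pericyte and fibroblast list at 0.562 and 0.331. Their part in the differences below was not tested.

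All 69 guidance genes were detected, and together they took 4513 CPM (4502 to 4524), or 636935 UMIs. Of the 69, 43 reached 5 CPM over all kept nuclei and 26 did not, with *Ntng2* at 5.31 CPM the nearest above this minimum and *Sema3c* at 3.79 CPM the nearest below it. *Dcc* alone took 43.4% of the UMIs of the 69 genes, and *Dcc* with *Unc5c* took 53.7%. Long genes collect more UMIs in nuclei, so levels are set side by side only per 100 kb of gene span. This scale takes UMIs to grow in proportion to span, which was not tested, and places short genes too high where they do not. On that scale *Plxnb2* was at 219 CPM per 100 kb, *Sema6a* at 202, *Plxnb3* at 199, *Dcc* at 178, *Plxna2* at 128 and *Unc5c* at 126, and the other members of the 43 were at 73.8 or less.

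The guidance genes as a whole were lower where *Pdgfra* was not counted, and this rested on *Dcc* and *Unc5c*. The summed level of the 69 was 2915 CPM with 0, 4624 CPM with 1 and 4915 CPM with 2 or more *Pdgfra* UMIs, a ratio of 0.593 (0.589 to 0.598) between the outer groups. Without *Dcc* and *Unc5c* the sum was 2115 CPM with 0 and 2070 CPM with 2 or more, a ratio of 1.02. Among the 43 members with at least 5 CPM, 10 were at least 1.5-fold higher with 0 than with 2 or more, against 14.6% of the 10763 genes with at least 5 CPM. They were *Robo2*, *Sema3a*, *Sema4b*, *Nrp1*, *Plxna4*, *Plxnd1*, *Ntng2*, *Ntn1*, *Efnb1* and *Epha3*. At least 1.5-fold lower were 8 of the 43, against 10.7% of all genes at that level, namely *Dcc*, *Unc5c*, *Sema3d*, *Sema4d*, *Plxnb3*, *Ephb2*, *Epha6* and *Ntn4*. Among nuclei with 10000 to 20000 UMIs only, a range chosen to bring the depths of the groups closer, the members lower numbered 13, against 13.0% of all genes. Over all kept nuclei the median log2 ratio was 0.10 over the 43 members and 0.13 over all 10763 genes. The medians lay apart in some of the splits described below. In nuclei with *Xist* and no Y-linked UMI they were -0.25 and 0.099. In those with Y-linked UMIs and no *Xist* they were 0.25 and 0.017.

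The promoters of 5 of these members are shown. Among members with at least 20 CPM, *Robo2* and *Sema3a* had the highest ratios and *Sema3d* and *Plxnb3* the lowest. *Sema4b*, at 6.11 CPM, had a higher ratio of 5.20. *Plxna4* and *Plxnb3* were past 1.5-fold under all 15 alternatives computed for each ratio. The 5 were chosen after these values were seen. The transcript starts used for *Robo2* and *Sema3a* lie inside the gene spans given below, whereas levels are summed over whole genes. Each line gives the 250 bases upstream of the canonical transcript start in GENCODE vM39 on GRCm39, 5′ to 3′ on the strand of the gene, with capitals for CAGCTG (an E-box, bound by basic helix-loop-helix factors), ACAAAG (bound by SOX factors) and TATAAA (the TATA box), each searched on both strands (CTTTGT and TTTATA are ACAAAG and TATAAA on the opposite strand), with no overlap between the matches shown.
Robo2 (chr16:74208423-74208672, minus strand): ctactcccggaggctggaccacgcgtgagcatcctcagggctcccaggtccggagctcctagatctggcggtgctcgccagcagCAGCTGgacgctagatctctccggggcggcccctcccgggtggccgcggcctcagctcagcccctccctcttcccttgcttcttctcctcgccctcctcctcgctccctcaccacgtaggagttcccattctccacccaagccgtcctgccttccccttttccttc
Sema3a (chr5:13448546-13448795, plus strand): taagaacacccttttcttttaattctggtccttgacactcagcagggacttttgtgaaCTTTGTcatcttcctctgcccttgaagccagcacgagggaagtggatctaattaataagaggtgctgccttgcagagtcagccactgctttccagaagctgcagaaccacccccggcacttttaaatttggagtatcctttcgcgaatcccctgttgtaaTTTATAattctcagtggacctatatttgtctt
Plxna4 (chr6:32565194-32565443, minus strand): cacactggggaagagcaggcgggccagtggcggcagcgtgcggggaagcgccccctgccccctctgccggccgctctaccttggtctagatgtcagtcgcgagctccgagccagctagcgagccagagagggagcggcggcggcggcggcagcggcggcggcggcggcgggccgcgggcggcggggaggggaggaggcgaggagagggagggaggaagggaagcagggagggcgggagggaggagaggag
Sema3d (chr5:12432874-12433123, plus strand): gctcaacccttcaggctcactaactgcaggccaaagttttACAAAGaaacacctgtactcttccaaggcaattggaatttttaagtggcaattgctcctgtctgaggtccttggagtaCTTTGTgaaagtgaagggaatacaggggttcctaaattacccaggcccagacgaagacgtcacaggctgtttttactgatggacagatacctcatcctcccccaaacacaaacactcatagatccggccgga
Plxnb3 (chrX:72800370-72800619, plus strand): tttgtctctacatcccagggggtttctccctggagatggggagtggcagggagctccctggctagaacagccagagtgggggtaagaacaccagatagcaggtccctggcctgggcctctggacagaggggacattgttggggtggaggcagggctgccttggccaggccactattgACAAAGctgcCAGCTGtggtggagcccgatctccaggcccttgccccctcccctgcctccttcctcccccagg
At least 1 CAGCTG was found in *Robo2* and *Plxnb3*, an ACAAAG in *Sema3a*, *Sema3d* and *Plxnb3*, a TATAAA in *Sema3a*, and none of these in *Plxna4*. Over the promoters of 21431 protein-coding genes of the same length, 11.85% held a CAGCTG, 15.9% an ACAAAG and 11.9% a TATAAA, and over the 43 members 6, 5 and 3 did. *Plxna4* had a GC content of 76.0% with 28 CpG dinucleotides, *Robo2* 66.8% with 16 and *Plxnb3* 63.2% with 1, whereas *Sema3a* had 44.4% with 4 and *Sema3d* 47.2% with 4. The median was 53.2% and 8 CpG over all genes, and 65.2% and 14 CpG over the 43 members. These matches are a description of sequence, and binding was not measured.

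**Figure D1:**
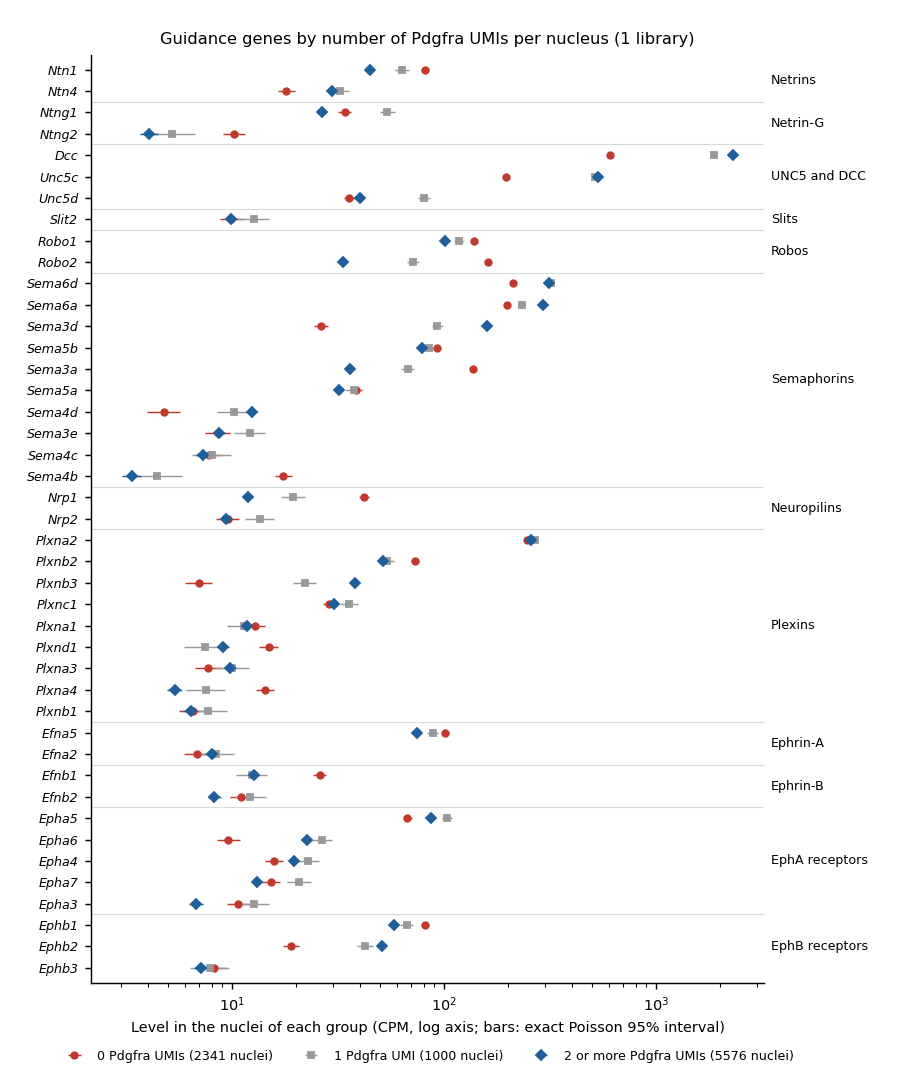
Level of the 43 members with at least 5 CPM in nuclei with 0 (circles), 1 (squares) or 2 or more (diamonds) *Pdgfra* UMIs, in CPM on a log axis, with exact Poisson 95% intervals and the families named at the right. *Dcc* is at 606 CPM with 0 and 2316 CPM with 2 or more, *Sema3d* and *Plxnb3* also lie far to the left with 0, and *Robo2*, *Sema3a* and *Nrp1* lie to the right.

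Of the netrin receptors, *Dcc* and *Unc5c* were at least 1.5-fold lower in nuclei without *Pdgfra* UMIs and *Unc5d* was within 1.5-fold. *Dcc* (chr18:71386705-72484179, minus strand), whose product attracts growth cones toward netrin-1, was at 606 CPM with 0, 1884 CPM with 1 and 2316 CPM with 2 or more *Pdgfra* UMIs. The ratio of the outer groups was 0.262 (0.257 to 0.266). When each nucleus was thinned to 5000 UMIs, 39.5% (37.4% to 41.5%) of the nuclei with 0 and 98.6% (98.2% to 98.9%) of those with 2 or more held a *Dcc* UMI. *Unc5c* (chr3:141170977-141540685, plus strand), a receptor that turns the netrin response into repulsion, was at 195, 515 and 529 CPM in the same order. Its ratio was 0.368 (0.358 to 0.379), and the middle group lay with the nuclei of 2 or more. *Unc5d* (chr8:29136745-29709664, minus strand) was at 35.8 and 40.2 CPM in the outer groups, a ratio of 0.889 (0.828 to 0.954), but at 80.2 CPM in nuclei with 1 UMI, so that it did not follow *Pdgfra* in order. *Unc5a* and *Unc5b* were below 5 CPM.

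Over all kept nuclei, the netrins themselves went opposite ways. *Ntn1* (chr11:68100190-68291662, minus strand), the secreted ligand of DCC, was at 81.1 CPM with 0, 63.2 CPM with 1 and 44.9 CPM with 2 or more *Pdgfra* UMIs. Its ratio was 1.81 (1.72 to 1.90), and the groups followed in order. *Ntn4* (chr10:93476543-93583069, plus strand), a netrin of basement membranes, was at 18.01, 32.3 and 29.5 CPM, a ratio of 0.610 (0.553 to 0.672). With cluster 1, described below, left out, the ratios were 1.11 (0.999 to 1.23) for *Ntn1* and 1.16 (1.02 to 1.31) for *Ntn4*. Of the membrane-anchored netrin-G proteins, *Ntng1* (chr3:109687356-110051327, minus strand) was at 33.9, 54.0 and 26.6 CPM, highest in the middle group as was *Unc5d*. *Ntng2* (chr2:29084553-29143017, minus strand) was at 10.2, 5.19 and 4.05 CPM, a ratio of 2.51 (2.15 to 2.93).

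Among the Slit receptors, *Robo2* had a ratio of 4.84 (4.63 to 5.06) and *Robo1* stayed within 1.5-fold. *Robo2* (chr16:73688727-75244270, minus strand) was at 162 CPM with 0, 71.4 CPM with 1 and 33.4 CPM with 2 or more *Pdgfra* UMIs. A *Robo2* UMI was found in 40.2% (38.1% to 42.2%) of thinned nuclei with 0 and in 12.5% (11.6% to 13.4%) of those with 2 or more, the reverse of *Dcc*. *Robo1* (chr16:72105194-72844378, plus strand), another Slit receptor on the same chromosome, was at 138, 117 and 101 CPM, a ratio of 1.36 (1.31 to 1.42). Of their ligands, *Slit2* (chr5:48140480-48465075, plus strand) was at 9.92, 12.6 and 9.91 CPM with a ratio of 1.00 (0.872 to 1.15), and *Slit1* and *Slit3* were at 1.87 and 1.95 CPM over all kept nuclei. Per 100 kb of gene span, the level over all kept nuclei was 14.8 CPM for *Robo1*, 3.91 for *Robo2*, 3.12 for *Slit2*, 1.30 for *Slit1* and 0.330 for *Slit3*.

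Of the 20 semaphorins, 10 reached 5 CPM. Without *Pdgfra* UMIs, 2 of the 10 were at least 1.5-fold higher, against 14.6% of all genes at that level. Another 2 were at least 1.5-fold lower, against 10.7%. The class 3 genes *Sema3d* and *Sema3a*, both secreted ligands of neuropilin and plexin complexes and both on chromosome 5, differed in opposite directions. *Sema3d* (chr5:12433124-12638929, plus strand) was at 26.2 CPM with 0, 92.7 CPM with 1 and 159 CPM with 2 or more, a ratio of 0.165 (0.152 to 0.178). *Sema3a* (chr5:13175288-13653578, plus strand), known as a repellent of growth cones, was at 137, 67.6 and 36.1 CPM, a ratio of 3.80 (3.62 to 3.97). Both followed the number of *Pdgfra* UMIs in order. Among the membrane-bound semaphorins, *Sema4b* (chr7:79836046-79876334, plus strand) was at 17.5, 4.41 and 3.35 CPM, a ratio of 5.20 (4.52 to 5.998), from 466 UMIs in the nuclei with 0 and 345 in those with 2 or more. *Sema4d* (chr13:51836318-51947922, minus strand), a ligand of plexin-B1, was at 4.76, 10.2 and 12.4 CPM, a ratio of 0.382 (0.316 to 0.459). *Sema6d* and *Sema6a*, transmembrane ligands of A-type plexins, lay just inside the threshold with ratios of 0.675 (0.656 to 0.695) and 0.680 (0.660 to 0.700). *Sema6d* (chr2:123931715-124509928, plus strand) was at 210.3, 319 and 312 CPM. The remaining semaphorins at 5 CPM, *Sema5b*, *Sema5a*, *Sema3e* and *Sema4c*, had ratios from 0.984 to 1.20.

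Neuropilins bind class 3 semaphorins, and only *Nrp1* of the 2 genes was past 1.5-fold. *Nrp1* (chr8:129085085-129231082, plus strand) was at 41.9 CPM with 0, 19.4 CPM with 1 and 11.9 CPM with 2 or more *Pdgfra* UMIs, a ratio of 3.52 (3.24 to 3.82). *Nrp2* was at 9.51, 13.5 and 9.40 CPM, a ratio of 1.012 (0.878 to 1.16). All 9 plexins, the semaphorin receptors that signal across the membrane, reached 5 CPM, and as a family they were level at 410.3 CPM with 0 and 418 CPM with 2 or more. Within that level total, *Plxna4* and *Plxnd1* were higher without *Pdgfra* UMIs and *Plxnb3* was lower. *Plxnb3* (chrX:72800620-72816120, plus strand), a plexin of the oligodendrocyte lineage, was at 6.97, 22.1 and 38.1 CPM, a ratio of 0.183 (0.157 to 0.212). *Plxna4* (chr6:32121203-32565193, minus strand) was at 14.3, 7.53 and 5.35 CPM, a ratio of 2.68 (2.34 to 3.05). *Plxnd1* (chr6:115931772-115972286, minus strand), the receptor of *Sema3e*, was at 14.9, 7.44 and 9.01 CPM, a ratio of 1.65 (1.46 to 1.86), and here the middle group was the lowest. The ratio of *Plxnd1* was past 1.5-fold under only 7 of the 15 alternatives and on the other side of 1 under 3. *Plxna2* (chr1:194300526-194499177, plus strand) was at 245, 267 and 256 CPM with a ratio of 0.957 (0.932 to 0.984), and a UMI of it was held by 64.3% and 65.0% of thinned nuclei in the outer groups.

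Among the ephrins and Eph receptors, *Efnb1* and *Epha3* were at least 1.5-fold higher and *Ephb2* and *Epha6* at least 1.5-fold lower without *Pdgfra* UMIs. Of the ephrins, *Efnb1* (chrX:98179680-98205454, plus strand), a transmembrane ligand of EphB receptors, was at 25.8 CPM with 0, 12.4 CPM with 1 and 12.7 CPM with 2 or more, a ratio of 2.04 (1.85 to 2.23). *Efna5* (chr17:62909956-63188312, minus strand), a membrane-anchored ligand of EphA receptors, was at 101, 88.4 and 74.8 CPM, a ratio of 1.35 (1.29 to 1.41). Among the receptors, *Ephb2* (chr4:136374850-136563351, minus strand) was at 18.9, 42.3 and 51.1 CPM, a ratio of 0.370 (0.337 to 0.406). *Epha6* (chr16:59473846-60425894, minus strand) was at 9.59, 26.6 and 22.5 CPM, a ratio of 0.426 (0.373 to 0.484). In the other direction, *Epha3* (chr16:63363897-63684538, minus strand) was at 10.6, 12.6 and 6.76 CPM, a ratio of 1.57 (1.37 to 1.81). The members with most UMIs of each receptor class stayed within 1.5-fold, *Epha5* (chr5:84202620-84565348, minus strand) at 67.0, 103 and 86.6 CPM and *Ephb1* (chr9:101799327-102231898, minus strand) at 81.1, 66.8 and 58.1 CPM.

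**Figure D2:**
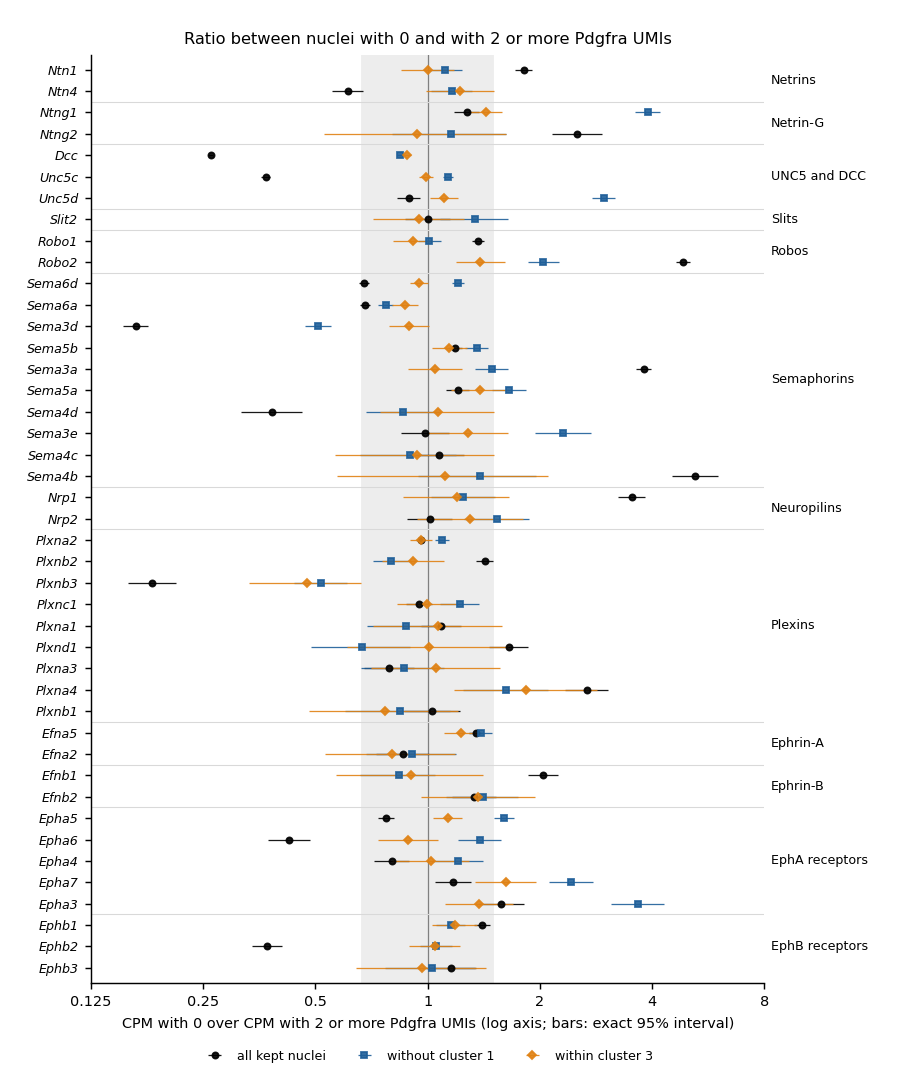
Level in nuclei with 0 over the level in nuclei with 2 or more *Pdgfra* UMIs for the 43 members, on a log axis with exact 95% intervals, over all kept nuclei (circles), without cluster 1 (squares) and within cluster 3 (diamonds). The shaded band spans 1.5-fold in both directions: 18 circles lie outside it, and 3 of the diamonds, *Epha7*, *Plxna4* and *Plxnb3*.

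The 26 members under 5 CPM took no part in these counts. They ran from *Robo3* with 2 UMIs and *Epha8* with 3 UMIs to *Sema3c* with 535 UMIs. Some had high or low ratios at low levels, and these are given as values. *Ephb4*, a receptor best known from veins, was at 10.4 CPM with 0 and 1.22 CPM with 2 or more. *Sema3c* was at 9.85 and 2.17 CPM, *Efna4* at 6.63 and 0.914 CPM and *Epha2* at 1.83 and 0.292 CPM. *Sema7a*, a membrane-anchored semaphorin, was at 0.749 and 3.28 CPM, and *Efna1* at 0.449 and 2.21 CPM.

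To place these differences, the nuclei were clustered with the settings of the methods but without the guidance genes and *Pdgfra* among the variable genes, so that these did not define the clusters. The nuclei fell into 8 clusters, numbered by size from 0 and given no cell type name. The number depended on the settings, with 18 clusters from 20 neighbors, 6 at resolution 0.4 and 5 when nuclei above 5% mitochondrial UMIs were left out, which kept 1954. After its own filtering, the paper lists 1954 nuclei for this library, in 5 clusters. Whether these are the same nuclei was not tested. Levels and clusters given here are those of the 8917 nuclei unless stated. Cluster 1 (1731 nuclei, led by *Adm*, *Tsix* and *Grin2a*) held 1556 of the 2341 nuclei without *Pdgfra* UMIs, and cluster 3 (1342 nuclei, led by *Ralyl*, *Tafa1* and *Tafa2*) held 481 of them. In cluster 1, *Pdgfra* was at 19.3 CPM against 143 to 395 CPM in the other clusters, 91.0% of nuclei had *Xist* and no Y-linked UMI, and *Egfr* was at 236 CPM. In cluster 3, 78.5% of nuclei had a Y-linked UMI and no *Xist*, and *Egfr* was at 103 CPM. Cluster 5 was the deepest, at a median of 30275.5 UMIs against 9956 to 19378 in the others, and 17.2% of its nuclei held both *Xist* and Y-linked UMIs, against 5.03% or less elsewhere. The smallest, cluster 7 (180 nuclei, led by *Bnc2*, *Arhgap24* and *Trpm3*), had 90.0% of nuclei with neither marker.

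Most guidance genes at this level differed between the clusters. Between the highest and the lowest cluster, 36 of the 43 members differed by at least 2-fold, against 43.1% of all genes with at least 5 CPM. Over the 7 clusters with 300 or more nuclei the count was 30 of 43, against 36.6%. The summed level of the 69 was 2147 CPM in cluster 1 and 4093 to 5384 CPM in the others. Of the 43 members, 11 were highest in cluster 1, 11 in cluster 3 and 11 in cluster 7, where 37.3%, 12.4% and 17.6% of all genes at that level were highest. In cluster 1, 14 members were lowest, against 19.1% of all genes.

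**Figure D3:**
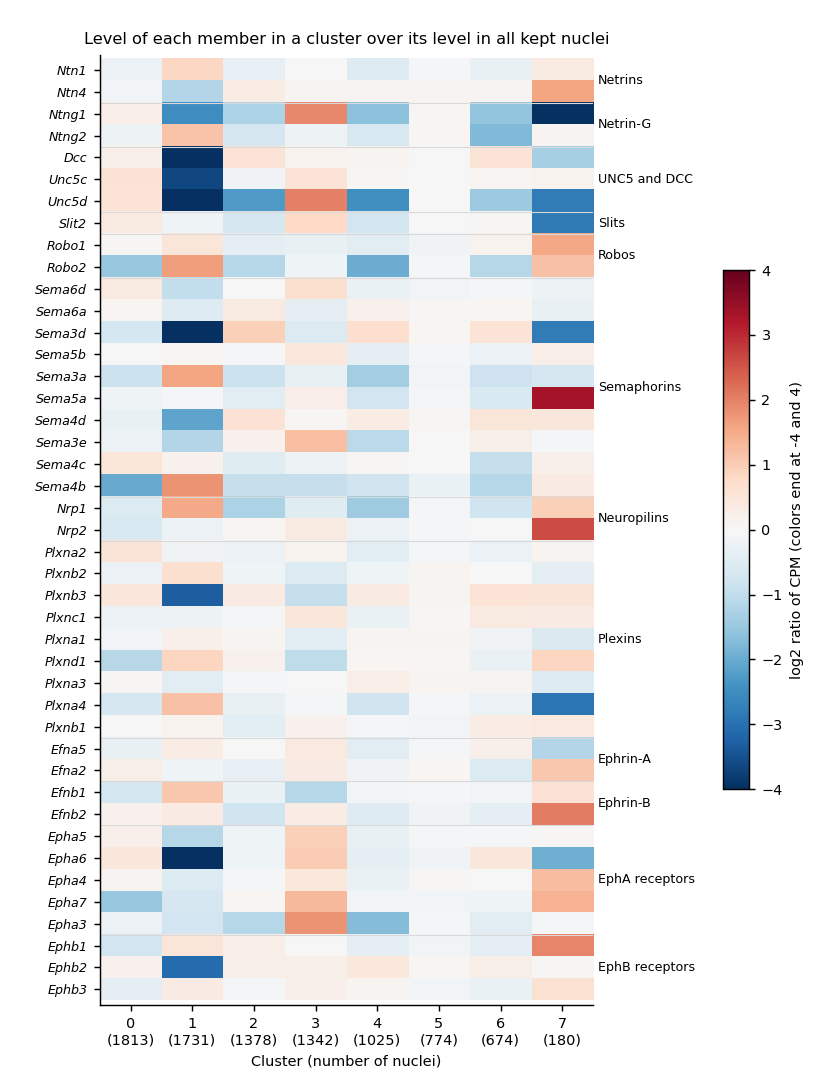
Level of the 43 members in each of the 8 clusters over their level in all kept nuclei, as a log2 ratio of CPM, with the number of nuclei under each cluster and colors that run from blue (lower) to red (higher). *Dcc*, *Unc5d*, *Sema3d* and *Epha6* are darkest blue in cluster 1, *Unc5d* and *Ntng1* are red in cluster 3, and *Sema5a*, *Nrp2* and *Efnb2* are red in cluster 7.

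Cluster 1 had the lowest levels of the netrin receptors *Dcc*, *Unc5c* and *Unc5d* and of several other members. *Dcc* was at 113 CPM (109 to 118) in cluster 1, at 781 CPM in cluster 7 and at 1934 to 2886 CPM in the other 6 clusters. A *Dcc* UMI was found in 14.9% (13.3% to 16.7%) of thinned nuclei of cluster 1, in 65.5% of those of cluster 7 and in 97.8% or more elsewhere. Of the 1572 thinned nuclei without a *Dcc* UMI, 1447 (92.0%) lay in cluster 1. *Unc5c* was at 37.4 CPM in cluster 1 and 426 to 695 CPM in the others, with a UMI in 9.76% of its thinned nuclei against 78.1% to 91.3%. *Sema3d* was at 7.87 CPM in cluster 1 and 18.5 CPM in cluster 7, and at 250.2 CPM in cluster 2, where it was highest. *Plxnb3* was at 3.12 CPM in cluster 1, 15.9 CPM in cluster 3 and 33.4 to 45.2 CPM in the others. *Epha6* was at 1.18 CPM in cluster 1 and 41.6 CPM in cluster 3, *Ephb2* at 5.20 CPM in cluster 1 and 46.1 to 58.7 CPM in the others, and *Unc5d* at 1.45 CPM in cluster 1. As a gauge of free RNA and of nuclei caught together, 3.74% (2.90% to 4.74%) of thinned nuclei with at least 2 *Xist* UMIs also held a Y-linked UMI, at a median depth before thinning of 12144 UMIs against 11615 in cluster 1. The shares of cluster 1 nuclei with a UMI of *Ephb2* (2.29%), *Sema3d* (1.76%), *Plxnb3* (0.823%), *Epha6* (0.470%) or *Unc5d* (0.412%) were below this gauge and are read as background. Those of *Dcc* and *Unc5c* were above it. Over all kept nuclei, however, the Y-linked genes summed to 72.9 CPM, against 1957 CPM for *Dcc* and 465 CPM for *Unc5c*. The gauge is not scaled to abundance, so it cannot separate *Dcc* and *Unc5c* in cluster 1 from background.

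Of the 10 members higher without *Pdgfra* UMIs, all but *Epha3* were highest in cluster 1, as were 37.3% of all genes with at least 5 CPM. Cluster 1 held 1556 of the 2341 nuclei without *Pdgfra* UMIs, so this is largely the same comparison. The share among all genes called higher is not given here. *Robo2* was at 196 CPM in cluster 1, 136 CPM in cluster 7 and 15.2 to 59.0 CPM in the others, with a UMI in 49.9% of thinned nuclei of cluster 1 and 6.12% of those of cluster 4. *Sema3a* was at 171 CPM in cluster 1 and 22.1 to 53.4 CPM elsewhere. *Nrp1* was at 52.0 CPM in cluster 1, 35.2 CPM in cluster 7 and 6.72 to 17.4 CPM in the others. *Sema4b* was at 21.3 CPM in cluster 1 and 1.51 to 7.60 CPM elsewhere, *Efnb1* at 31.9 CPM against 6.91 to 22.8, *Ntn1* at 93.7 CPM against 37.2 to 68.9, and *Plxna4* at 16.1 CPM against 0.9504 to 7.02. Of the other semaphorin receptors, *Plxnb2* was also highest in cluster 1, at 86.5 CPM against 37.9 to 60.1 elsewhere. *Plxnd1* was at 18.1 CPM both there and in cluster 7, and at 4.62 to 11.3 CPM in the others. *Plxna1* differed little, at 13.6 CPM in cluster 1 and 8.08 to 12.9 CPM elsewhere, and *Nrp2*, *Plxna2* and *Plxna3* were not highest there, at 8.23, 231 and 7.06 CPM. The netrin receptor *Unc5b*, under 5 CPM over all kept nuclei, was at 3.39 CPM in cluster 1 and 0.777 to 1.32 CPM elsewhere.

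Clusters 3 and 7 were high in other members. In cluster 3, *Unc5d* was at 173 CPM (167 to 179) with a UMI in 40.8% of thinned nuclei, against 1.45 to 62.7 CPM in the others. *Ntng1* was at 116 CPM in cluster 3, against 36.7 CPM in cluster 0 and 0.9504 CPM in cluster 7. *Epha3* was at 27.9 CPM in cluster 3 and 2.39 to 7.73 CPM elsewhere, and *Epha5* at 165 CPM against 38.0 to 96.1. In cluster 7, *Sema5a* (chr15:32244919-32696487, plus strand), a semaphorin with thrombospondin repeats, was at 333 CPM (309 to 359) against 19.8 to 40.2 CPM elsewhere. It was found in 64.4% (56.9% to 71.4%) of its 177 thinned nuclei and in at most 15.1% of those of any other cluster. *Ephb1* was at 244 CPM in cluster 7 against 37.4 to 88.4, *Robo1* at 321 CPM against 80.3 to 154, *Nrp2* at 58.9 CPM against 6.33 to 12.5, *Ntn4* at 82.7 CPM against 12.1 to 33.8, and *Efnb2* at 37.5 CPM against 5.20 to 11.4. *Slit2* was at 1.43 CPM in cluster 7 and 17.6 CPM in cluster 3.

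**Figure D4:**
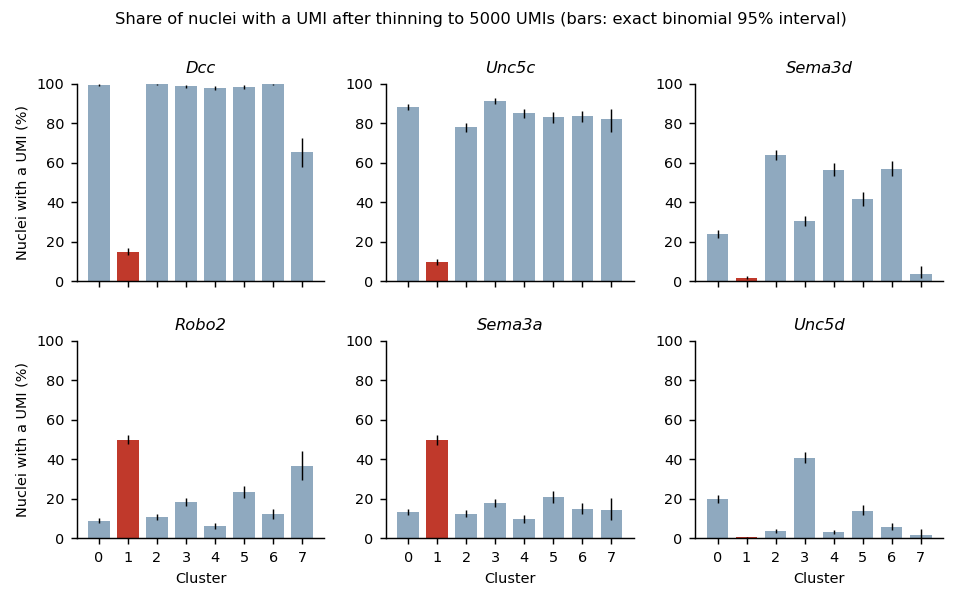
Share of nuclei with at least 1 UMI of 6 members in each cluster, in percent, after each nucleus was thinned to 5000 UMIs, with exact binomial 95% intervals as bars and cluster 1 in red. *Dcc* and *Unc5c* are low in cluster 1 and at 65.5% or more in every other cluster, *Robo2* and *Sema3a* reach 49.9% and 49.6% in cluster 1, and *Unc5d* is highest in cluster 3.

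Many of the differences by *Pdgfra* moved with cluster 1. With cluster 1 left out, 785 nuclei with 0 and 5518 with 2 or more *Pdgfra* UMIs remained, and the summed level of the 69 was 4998 and 4943 CPM. Then 10 of the 43 members were at least 1.5-fold higher, against 5.99% of all genes, and 2 were at least 1.5-fold lower, against 3.58%. Those lower were *Plxnb3*, with a ratio of 0.516 (0.437 to 0.606), and *Sema3d*, with 0.508 (0.469 to 0.550). Of the 18 members past 1.5-fold before, 6 were now on the other side of 1, *Epha6* at 1.38, *Ntn4* at 1.16, *Unc5c* at 1.13 (1.10 to 1.17) and *Plxnd1* at 0.668, and, with intervals that hold 1, *Ephb2* at 1.05 (0.952 to 1.16) and *Efnb1* at 0.836 (0.660 to 1.05). The share of all called genes that crossed 1 is not given here, so these 6 describe these members only. *Dcc* was then at 0.841 (0.827 to 0.855), so that *Dcc* and *Unc5c* were both within 1.5-fold once cluster 1 was left out. Of the 10 higher before, *Robo2* at 2.04, *Plxna4* at 1.63 and *Epha3* at 3.67 were still past 1.5-fold. The other 7 of the 10 now higher were *Ntng1* at 3.89, *Unc5d* at 2.96, *Epha7* at 2.43, *Sema3e* at 2.31, *Sema5a* at 1.65, *Epha5* at 1.60 and *Nrp2* at 1.54. Of these, *Ntng1*, *Unc5d*, *Sema3e* and *Epha5* were highest in cluster 3, which held 481 of the 785 nuclei.

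Within cluster 3, the only cluster with at least 300 nuclei in both groups, little of the contrast remained. Its 481 nuclei with 0 and 516 with 2 or more *Pdgfra* UMIs had median depths of 8836 and 13382.5 UMIs, Y-linked UMIs without *Xist* in 76.7% and 80.2%, and *Egfr* at 139 and 80.6 CPM. At least 1.5-fold higher were 2 of the 43 members, against 2.05% of all genes, and at least 1.5-fold lower was 1, against 1.95%. *Plxna4* was at 9.53 and 5.20 CPM, a ratio of 1.83 (1.18 to 2.85) from 44 UMIs in each group. Its UMIs were found in 2.97% (2.12% to 4.03%) of thinned cluster 3 nuclei. *Plxna4* was at 7.22 CPM over all kept nuclei, against 72.9 CPM for the Y-linked genes. The 3.74% gauge of free RNA is not scaled to abundance, so it cannot separate *Plxna4* from background here. *Epha7* was at 46.1 and 28.5 CPM, a ratio of 1.62 (1.34 to 1.95). *Plxnb3* was at 9.53 and 20.1 CPM, a ratio of 0.474 (0.332 to 0.664), and so was lower without *Pdgfra* in this cluster as well. *Dcc* was at 1974 and 2244 CPM there, *Unc5c* at 673 and 678 CPM, *Robo2* at 66.0 and 47.8 CPM, *Sema3a* at 47.6 and 45.5 CPM, and *Sema3d* at 82.3 and 92.3 CPM. The other clusters, with 20 to 144 nuclei without *Pdgfra* UMIs in each apart from cluster 1, were not split, and the splits by cluster were added after the data were seen.

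The contrast was also computed within classes of nuclei by their sex-linked transcripts, which moved with the clusters. Among nuclei with *Xist* and no Y-linked UMI, 1452 had 0 and 346 had 2 or more *Pdgfra* UMIs. Of the former, 1428 lay in cluster 1, and of the latter 187 (54.0%) lay in cluster 5 and 47 in cluster 1, at a median of 24543 UMIs. In this class 8 of the 43 members were at least 1.5-fold higher with 0, against 11.4% of all genes, and 14 at least 1.5-fold lower, against 13.4%. *Dcc* was at 0.0308 (0.0287 to 0.0329) of its level in the nuclei with 2 or more. The part that cluster 5, with its depth and its 17.2% of nuclei holding both kinds of transcript, has in this ratio was not tested. Among nuclei with Y-linked UMIs and no *Xist* (462 and 1468 nuclei), 8 members were higher, against 5.28%, and 2 lower, against 4.46%, and *Dcc* had a ratio of 0.903 (0.883 to 0.923). Here the groups also lay in different clusters. Of those with 0, 79.9% were in cluster 3, and of those with 2 or more, 28.2% were in cluster 3 and 41.3% in cluster 0. Among nuclei with neither marker (345 and 3616 nuclei), 11 were higher, against 8.49%, and 5 lower, against 3.34%, and *Dcc* had a ratio of 0.658 (0.640 to 0.675). Of those with 0, 15.9% were in cluster 1 and 30.7% in cluster 3, against 0.0277% and 2.41% of those with 2 or more. The part of these cluster differences in the ratios was not tested. Of the 10 members higher over all nuclei, 7 were above 1 in all 3 classes, the exceptions being *Epha3*, *Efnb1* and *Plxnd1*. Of the 8 lower, 5 were below 1 in all 3 classes, the exceptions being *Epha6*, *Ephb2* and *Ntn4*, but in the Y-linked class *Unc5c* at 0.999 (0.959 to 1.04) and *Sema4d* at 0.997 (0.719 to 1.36) had intervals that hold 1. These counts have no share over all genes beside them and describe these members only. *Sema3d* had ratios of 0.0261, 0.521 and 0.520 in the 3 classes, and *Robo2* 2.51, 2.23 and 2.98.

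Pairs of members in the same nucleus were counted after thinning to 5000 UMIs. Of 7188 nuclei with a *Dcc* UMI, 83.1% (82.22% to 83.97%) also had an *Unc5c* UMI, and of 1572 without, 13.4% (11.8% to 15.2%). Within cluster 1 the shares were 17.3% (12.9% to 22.5%) and 8.43% (7.05% to 9.98%), and outside it 85.5% (84.7% to 86.3%) and 71.2% (62.4% to 78.9%), so that most of this contrast lay between cluster 1 and the rest. *Robo2* showed the opposite, with a UMI in 14.2% (13.4% to 15.1%) of nuclei with *Dcc* and 48.0% (45.5% to 50.5%) of those without. Within cluster 1 a *Robo2* UMI was found in 52.8% (46.4% to 59.0%) of nuclei with *Dcc* and 49.4% (46.8% to 52.0%) of those without, and outside it in 12.8% (12.04% to 13.6%) and 32.0% (23.9% to 40.9%). Of the nuclei without *Dcc* outside cluster 1, 61 lay in cluster 7 and 22 or fewer in each of the others, and in cluster 7 36.7% of all thinned nuclei held a *Robo2* UMI, so that the shares outside cluster 1 set nuclei of different clusters side by side. *Sema3a* was found in 36.4% (32.9% to 40.0%) of nuclei with an *Nrp1* UMI and 19.8% (19.0% to 20.7%) of those without, and within cluster 1 in 55.1% (49.7% to 60.3%) and 48.2% (45.5% to 50.9%). *Efna5* was found in 31.9% (30.1% to 33.7%) of nuclei with an *Epha5* UMI and 27.2% (26.1% to 28.3%) of those without. The ligand *Ntn1* went the other way, in 19.8% of nuclei with *Dcc* and 33.1% of those without. Outside cluster 1 these shares were 19.1% and 19.2%. *Plxna4* was found in 6.62% of nuclei with *Nrp1* and 3.27% of those without, and *Slit2* in 5.23% with *Robo2* and 4.10% without. *Sema4d* was found in 5.87% with *Plxnb3* and 4.84% without, and outside cluster 1 in 5.94% and 5.95%.

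Other axon guidance genes were counted by the same rule. Of 25 co-receptors, adhesion molecules and other surface partners, 20 reached 5 CPM, of which 5 were at least 1.5-fold higher and 8 at least 1.5-fold lower without *Pdgfra* UMIs, or 25% and 40.0% of them against 14.6% and 10.7% of all genes, with a median log2 ratio of -0.22. Lower were *Cntn1*, an adhesion molecule of the contactin family, at 754 CPM with 0 and 2849 CPM with 2 or more, *Dscam*, a guidance receptor, at 609.6 and 1128 CPM, and *Ptprz1*, a receptor phosphatase of OPCs, at 1141 and 2101 CPM. The ratio was 0.145 for *Chl1*, 0.310 for *Dscaml1* and 0.525 for *Sdc3*, while the adhesion molecules *Ncam1*, *Nrcam* and *Flrt2* were within 1.5-fold at 1.02, 0.866 and 0.891. Higher was *Lrig1*, a membrane protein that restrains EGFR, at 116 and 13.2 CPM, and the ratio was 2.36 for *Rgma*, 2.17 for *Fzd3*, 2.00 for *Vangl2* and 1.79 for *Rgmb*. Of 54 intracellular partners, 48 reached 5 CPM, with 10 higher and 8 lower (20.8% and 16.7%, against the same 14.6% and 10.7%) and a median log2 ratio of 0.09, near the 0.13 of all genes. *Vav3*, a guanine nucleotide exchange factor, was at 937 and 177 CPM, and *Mical2*, an actin oxidoreductase of the family that acts downstream of semaphorins, at 33.6 and 4.51 CPM. *Rnd3*, *Nck2*, *Rock2* and *Ptk2* had ratios of 2.29, 2.01, 1.92 and 1.81. Among those lower, the kinases *Pak1* and *Pak3* had ratios of 0.292 and 0.345, *Dpysl3* 0.388, *Rnd2* 0.532, *Enah* 0.608 and *Tiam1* 0.621.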

How the data were processed

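Single-nucleus reads from the 10x 3' v3.1 kit had been aligned to mm39 by the authors (Cell Ranger 8.0.1). The deposited values are UMI counts, unnormalized, for 33696 genes (154375410 UMIs in all). Gene positions came from GENCODE vM39 on GRCm39, the same build, and 33185 genes matched by identifier. Only nuclei in which 2000 to 8000 genes were detected entered the analysis. CPM are summed UMIs of a gene over all UMIs of a group, with exact Poisson intervals. Ratios have exact conditional binomial intervals, and shares were taken after thinning each nucleus to 5000 UMIs, which left out 157 nuclei, with Clopper-Pearson intervals. Calls needed at least 5 CPM over all kept nuclei and a 1.5-fold difference. Clusters were made with Seurat 5.3.0 in R 4.3.3 (scale factor 1000, 3000 variable genes, total counts regressed out, the leading 20 components, 200 neighbors, resolution 1.0). Scrublet (scanpy 1.11.5) called 0 doublets, which does not show that none were present, and no nucleus was removed from the main values on its account. Its scores were used only in an alternative that ranked nuclei by score and dropped the top 8%. That alternative is counted among the 15 computed for each ratio. Whether the scores mark doublets was not tested. Intervals and calls were run on simulated Poisson counts, the model that the intervals assume. This checks the computation and not the spread between nuclei. Named were the member with most UMIs in each family, members past 1.5-fold, the 10 members with the largest range between clusters, and up to 6 partner genes per direction. The members and gene lists were chosen with earlier results of these data known. Alternatives changed the nuclei kept, depth, doublets, *Pdgfra* groups, weights, scaling, thresholds and clustering. One list of cell type markers is not reported here.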

Additional observations from a re-analysis of the deposited data

How the results depend on the processing

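The count of members at least 1.5-fold lower without *Pdgfra* UMIs, 8 as reported against 10.7% of all genes, was 13 among nuclei with 10000 to 20000 UMIs (13.0% of all genes), 5 when the *Pdgfra* groups were formed after thinning (3.80%), 13 with a minimum of 1 CPM (11.8%), 14 in the *Xist* class (13.4%), 2 in the Y-linked class (4.46%) and 5 in the class with neither (3.34%). The count of members higher, 10 as reported against 14.6%, was 3 with a minimum of 20 CPM (10.1%). The median log2 ratio, 0.10 as reported, was 0.24 with at most 5% mitochondrial UMIs, -0.17 among nuclei with 10000 to 20000 UMIs, -0.25 in the *Xist* class, 0.25 in the Y-linked class and -0.024 after division by the median ratio of all genes. Over all genes with at least 5 CPM it was 0.13 as reported, 0.099 in the *Xist* class and 0.017 in the Y-linked class. *Epha3* had a ratio of 0.998 among nuclei with 10000 to 20000 UMIs and 0.713 in the *Xist* class. In the Y-linked class the ratio was 1.40 for *Epha6*, 1.05 for *Ephb2*, 0.823 for *Efnb1*, 1.21 for *Ntn4* and 0.857 for *Plxnd1*, and in the class with neither 1.07 for *Ntn4* and 0.773 for *Plxnd1*, on the other side of 1 than over all nuclei. Of the alternatives chosen after seeing the data, leaving out cluster 1 gave 2 members lower (3.58%) and a median of 0.21, with *Epha6* at 1.38, *Ephb2* at 1.05, *Efnb1* at 0.836, *Ntn4* at 1.16, *Plxnd1* at 0.668 and *Unc5c* at 1.13. The other, cluster 3 alone, gave 2 higher (2.05%) and 1 lower (1.95%), with *Ephb2* at 1.05, *Efnb1* at 0.901, *Ntng2* at 0.938, *Ntn1* at 1.00, *Ntn4* at 1.22 and *Sema4d* at 1.06. The count of members that differed 2-fold between clusters, 36 as reported, was 28 to 43 under 5 other clusterings, where 32.3% to 72.1% of all genes did. The summed level of the 69 genes, 4513 CPM as reported, was 4498 CPM over all deposited barcodes, 4488 CPM with 3000 to 7000 detected genes and 4794 CPM with at most 5% mitochondrial UMIs. Over the 43 members with at least 5 CPM, the median share of nuclei with a UMI was 9.90% after thinning to 5000 UMIs. It was 7.09% after thinning to 3000 UMIs and 22.2% without thinning. *Plxnb3* and *Plxna4* were past 1.5-fold under all 15 alternatives, and *Robo2* and *Sema3d* under 14, cluster 3 alone being the exception. The cause of these changes was not tested, and with 1 library no replicate could be left out. No paired analysis was possible because the library has no replicate.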
